A study of Mus musculus with 20 samples.

Results

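Cadherins and the factors of epithelial-mesenchymal transition were followed through subcutaneous SCCVII tumors of mice given APG-157, checkpoint antibodies or both. The members were the 10 genes Cdh1, Cdh2, Epcam, Vim, Zeb1, Zeb2, Snai1, Snai2, Twist1 and Twist2, taken by symbol from the 54309 genes of the count table. Of the 10 members, 10 passed the filter on low counts, which left 19567 genes for testing.

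SCCVII is a mouse squamous carcinoma line used as a head and neck cancer model. By the study's methods, it was grown in the flanks of immunocompetent C3H/HeOuJ mice. Each of 10 groups had 2 RNA-seq libraries, A and B, so that 20 tumor libraries were read. One group was the control, and 3 got a single agent, which was APG-157, anti-PD-1 or anti-CTLA-4. Another 3 groups got a pair of these agents: APG-157 plus anti-PD-1, APG-157 plus anti-CTLA-4, or both antibodies. The full combination was all 3 agents together. A further group got anti-CD8 by itself, and the last, here called the CD8-depleted combination, got anti-CD8 added to APG-157 plus anti-CTLA-4. APG-157 is a botanical drug that holds curcumin and related compounds of Curcuma longa. Anti-PD-1 and anti-CTLA-4 block inhibitory receptors of T cells, and anti-CD8 removes cytotoxic T cells. The labels give 1 control group and do not give the age of the mice. Nothing in them tells whether libraries A and B are separate tumors. The p-values therefore measure the spread between libraries, which may be technical.

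E-cadherin, the product of Cdh1, joins epithelial cells at adherens junctions, and EpCAM is a surface adhesion molecule of most simple epithelia. In epithelial-mesenchymal transition, transcription factors of the Snail, Zeb and Twist families lower such genes, while N-cadherin (Cdh2) and the intermediate filament protein vimentin (Vim) commonly rise. Carcinomas can also rest between both states. Fibroblasts, macrophages and endothelial cells of a tumor use several of the same mesenchymal genes, and in bulk tumor RNA fewer cells of a type cannot be told apart from less RNA per cell.

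Snail and Zeb factors bind the E-box letters CAGGTG, read as CACCTG on the other strand. The promoter of Epcam is shown because Epcam had the lowest median level of the members and the widest range over the libraries. It is given for the 250 bases before the RefSeq start on the plus strand (GRCm38.p6, chr17:87635729-87635978), 5′ to 3′, with both forms of the E-box in capitals.
Epcam: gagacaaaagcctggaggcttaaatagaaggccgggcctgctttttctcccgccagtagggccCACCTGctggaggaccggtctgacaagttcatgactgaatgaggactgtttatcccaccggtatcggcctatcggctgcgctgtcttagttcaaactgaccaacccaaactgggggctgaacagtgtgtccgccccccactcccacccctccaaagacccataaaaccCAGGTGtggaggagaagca
The 2 matches begin at positions -187 and -19 from the start. Of 32851 promoter windows of this length, 17.2% held at least 1 match on either strand. A match is a run of letters and not a measured binding site.

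One library stood apart before any comparison was made. In library B of the CD8-depleted combination, Cdh1 was at 224 CPM (counts per 1000000 counts) and Epcam at 218 CPM, against 9.03 CPM and 0.608 CPM in the highest of the other 19 libraries. The 10 adipocyte markers had a mean log2(CPM + 0.1) of 7.83 there and between -2.19 and 1.23 in the other 19, and 10 of the 10 were above every other library. The ranges in the description below therefore cover 19 libraries, with that library given beside them. Of the remaining facts of the whole series, library totals ran from 43920525 to 72081922 counts, and the 2 libraries of APG-157 plus anti-CTLA-4 differed from each other by a biological coefficient of variation of 4.25%, against 20.8% to 68.2% within the other 9 groups. The study describes a single small resected tumor of that group for its flow cytometry and staining. Whether both libraries came from the same tumor is not given in the sources used here, and they were fitted as 2 replicates.

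Vim was abundant in the tumors, and Cdh1 and Epcam were low. Vim (ENSMUSG00000026728.10) stood at 3942 to 5974 CPM in 19 libraries, with a median of 4567 CPM. Cdh1 (ENSMUSG00000000303.13) stood at 2.29 to 9.03 CPM, with a median of 4.11 CPM. Epcam (ENSMUSG00000045394.10) stood at 0.0888 to 0.608 CPM, which was 5 to 42 counts per library. Per kilobase of exon, which allows genes to be set beside each other, the level of Vim was 2052 times that of Cdh1 in the median library, with a range from 998 to 4410 times. The classical mesenchymal cadherin was not abundant either. Cdh2 (ENSMUSG00000024304.15) stood at 0.388 to 2.71 CPM, and its median level per kilobase, 0.148, was below that of Cdh1, 0.928.

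All 6 transcription factors were present in every library. Zeb1 and Zeb2 encode zinc finger repressors of Cdh1. Zeb1 (ENSMUSG00000024238.16) ranged from 87.3 to 145 CPM and Zeb2 (ENSMUSG00000026872.19) from 100.5 to 194 CPM in the 19 libraries. The exons of Zeb2 share 359 bases with other annotated genes, among them the antisense gene Zeb2os, and the strand setting of the counting is not given in the sources used here.

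The basic helix-loop-helix factor Twist1 (ENSMUSG00000035799.7) had the highest level per kilobase of the 6 factors, with a median of 29.2, followed by Zeb1 at 20.9 and Zeb2 at 13.1. Snai1 (ENSMUSG00000042821.8), the Snail factor, had a median of 10.6 per kilobase and 17.3 CPM. Snai2 (ENSMUSG00000022676.8), the Slug factor, had a median of 8.46 per kilobase and 17.1 CPM. Twist2 (ENSMUSG00000007805.5) had a median of 6.99 per kilobase and 22.2 CPM. The exons of Twist2 overlap the antisense gene Gm29100 over 1477 of 3174 bases.

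**Figure D1:**
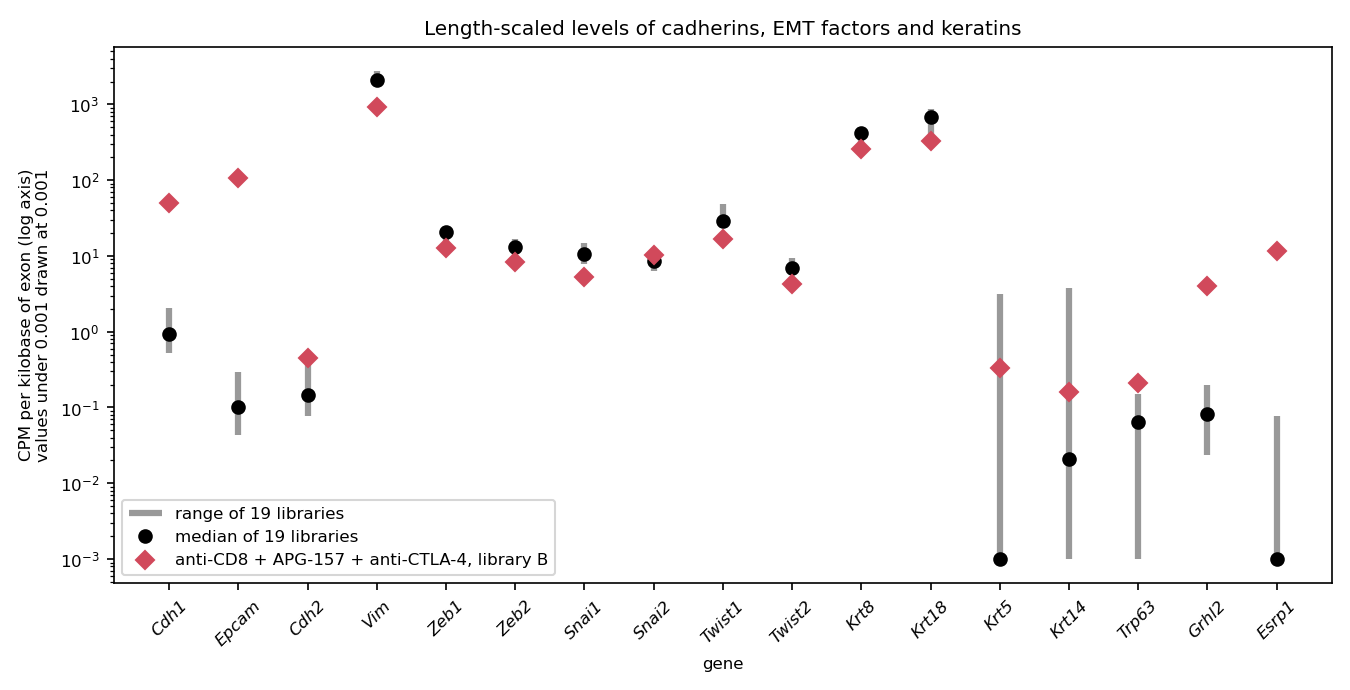
Level per kilobase of exon on a log axis for the members and for 7 epithelial genes. Gray bars span 19 libraries, black points are their median and red diamonds are library B of the CD8-depleted combination. Vim, Krt8 and Krt18 lie at the top, and the red diamonds of Cdh1 (50.5) and Epcam (106) lie far above the gray bars.

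The labelled squamous origin was checked against keratinocyte genes. The basal keratins Krt5 and Krt14 were at or near 0 in most libraries, with medians of 0 and 0.0356 CPM and highest values of 6.97 and 6.50 CPM. Trp63, the master factor of squamous epithelium, reached 1.27 CPM in the 19 libraries. The defining squamous markers were thus nearly absent. Of the simple epithelial keratins, Krt8 and Krt18 were abundant, while Krt19 reached at most 0.116 CPM in the 19 libraries. Krt8 stood at 510 to 981 CPM and Krt18, its partner, at 558 to 1258 CPM. The integrin gene Itgb4 of hemidesmosomes was at 87.0 to 158 CPM. Splicing and transcription factors that keep cells epithelial were low, with a median of 0 CPM for Esrp1 and 0.435 CPM for Grhl2. Intracellular partners of cadherins were present, with medians of 549 CPM for Ctnnb1 (β-catenin) and 265 CPM for Ctnna1 (α-catenin).

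Members differed in how far they varied among the 19 libraries. Snai2 spanned a 1.49-fold range, Vim 1.51-fold, Twist2 1.57-fold and Zeb1 1.66-fold. Snai1 spanned 1.91-fold, Zeb2 1.93-fold and Twist1 2.12-fold. The low members varied most, Cdh1 over 3.95-fold, Epcam over 6.84-fold and Cdh2 over 6.98-fold. When the 10 groups were ordered by their mean, most neighbours in the order overlapped. This held for 9 of 9 neighbouring pairs in Cdh1, Zeb1 and Snai2, 8 of 9 in Cdh2, Vim and Snai1, 7 of 9 in Epcam, Zeb2 and Twist2, and 5 of 9 in Twist1.

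**Figure D2:**
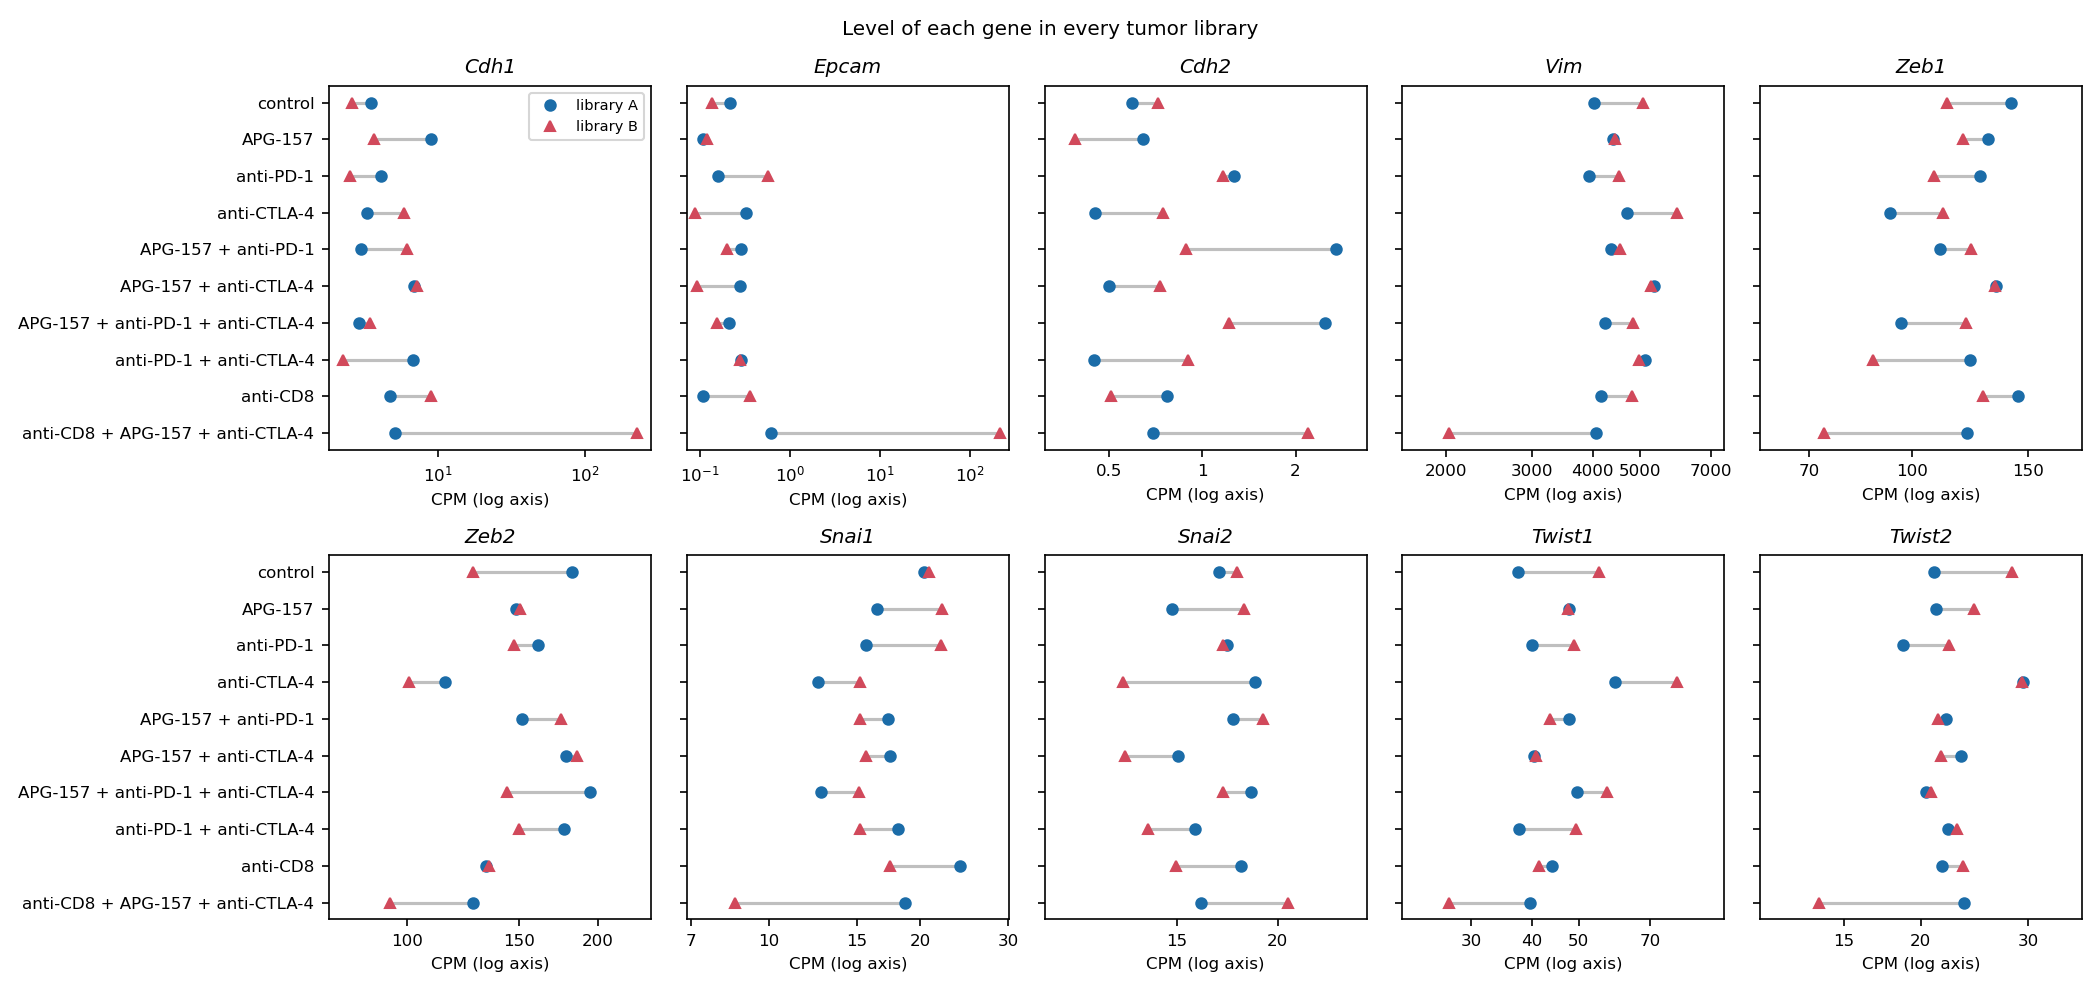
CPM of each member in every library, on a log axis of its own range per panel. Circles are library A, triangles library B, and a gray line joins the 2 libraries of a group. Outside the lowest row, groups mostly overlap, while anti-CTLA-4 lies low in Zeb2 (100.5 and 115 CPM) and high in Twist1 (59.2 and 79.7 CPM).

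The first comparisons asked whether a treatment moved the tumors between the epithelial and mesenchymal states, by setting each treated group against control. By edgeR's quasi-likelihood test at an adjusted p under 0.05, 0 of 10 members were called in any of the 9 comparisons. The background over all genes was 0.0204% for APG-157 plus anti-CTLA-4, 0.0102% for the CD8-depleted combination and 0% in the other 7. At an unadjusted p under 0.05, with all libraries in the fit, edgeR had 2 members with anti-CTLA-4. It had 1 each with APG-157 plus anti-PD-1 and with the full combination, 4 with the CD8-depleted combination and 0 in the other 5 comparisons. The shares of all genes at that level were 6.45%, 2.43%, 4.48% and 19.1% for those 4 comparisons. For the other 5 they were 0.761% (APG-157), 0.618% (anti-PD-1), 11.1% (APG-157 plus anti-CTLA-4), 6.04% (both antibodies) and 1.19% (anti-CD8). DESeq2 called Cdh1 and Epcam with the CD8-depleted combination, against a background of 6.85%, and 0 members in the other 8. Its background was 0.0358% with APG-157, 0.0102% with anti-PD-1, 0.0971% with anti-CTLA-4, 0.0204% with APG-157 plus anti-PD-1, 1.91% with APG-157 plus anti-CTLA-4, 0.0971% with the full combination, 0.414% with both antibodies and 0.0307% with anti-CD8. The 9 comparisons share the control libraries.

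Cdh1 was at 3.52 and 2.63 CPM in the control libraries. It was at 8.94 and 3.70 CPM with APG-157, at 6.87 and 7.18 CPM with APG-157 plus anti-CTLA-4, and at 4.76 and 9.03 CPM with anti-CD8. Both libraries of each of these 3 groups were above both controls. Of all genes, 21%, 57.6% and 32% had groups that did not overlap in those comparisons. The log2 fold changes were 1.04 ± 1.10 (SE), 1.19 ± 1.11 and 1.17 ± 1.10, and edgeR's adjusted p was 1, 0.693 and 1. With all libraries in the fit, the standard errors were about as large as the changes. That fit shares its spread over all libraries, among them the one that stood apart. Without that library, the log2 fold changes of these 3 groups were 1.04, 1.19 and 1.17, each ± 0.57 (SE). Both libraries of the CD8-depleted combination, taken up below, were also above both controls, at 5.15 and 224 CPM. In that comparison 34.9% of all genes had groups that did not overlap.

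Epcam with anti-PD-1 was at 0.158 and 0.566 CPM, against 0.215 and 0.136 CPM in control, and the groups overlapped. Its log2 fold change was 1.04 ± 1.77 (SE), with an edgeR adjusted p of 1, and it turned to -0.16 without library B of anti-PD-1. With APG-157, Epcam was at 0.1075 and 0.118 CPM (6 and 7 counts), below both controls, while Cdh1 was above. With both antibodies it was at 0.283 and 0.277 CPM, above both controls. Of all genes, 21% and 39.1% had groups that did not overlap there. The log2 fold changes of Epcam were -0.63 ± 2.00 and 0.66 ± 1.83 (SE).

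Zeb2 and Twist1 were the members with the smallest p for anti-CTLA-4 alone, in opposite directions. Zeb2 was at 115 and 100.5 CPM, below the controls at 182 and 127 CPM. Its log2 fold change was -0.52 ± 0.19 (SE, unadjusted p = 0.0178 by edgeR, adjusted p = 0.766). Twist1 was at 59.2 and 79.7 CPM, above the controls at 37.5 and 54.9 CPM, with a log2 fold change of 0.59 ± 0.22 (SE, unadjusted p = 0.0182 by edgeR, adjusted p = 0.766). Neither passed the correction. These were 2 of 5 members whose groups did not overlap, against 33.3% of all genes. The Zeb2 change was -0.24 without control library A, with an edgeR adjusted p of 1, and the Twist1 change was 0.32 without anti-CTLA-4 library B, with an edgeR adjusted p of 0.946. Library B of anti-CTLA-4 had a skeletal muscle marker level of 6.94 and library A of -0.29 (mean log2(CPM + 0.1) of 10 genes), against 1.55 and 2.45 in control. With that level as a covariate the changes were -0.53 for Zeb2 and 0.56 for Twist1. The other 8 members lay between -0.57 and 0.58 on the log2 scale.

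The Snail factor Snai1 was at 20.4 and 20.9 CPM in control. It was at 12.6 and 15.2 CPM with anti-CTLA-4, at 12.7 and 15.1 CPM with the full combination, and at 18.7 and 8.59 CPM with the CD8-depleted combination. With APG-157 plus anti-PD-1 it was at 17.3 and 15.2 CPM, with APG-157 plus anti-CTLA-4 at 17.4 and 15.6 CPM, and with both antibodies at 18.1 and 15.2 CPM. In each of these 6 groups both libraries lay below both controls. The share of all genes whose groups did not overlap was 33.3% with anti-CTLA-4, 30.7% with the full combination, 34.9% with the CD8-depleted combination, 25.6% with APG-157 plus anti-PD-1, 57.6% with APG-157 plus anti-CTLA-4 and 39.1% with both antibodies. With all libraries in the fit, the log2 values ran from -0.31 ± 0.30 (SE) with both antibodies. They reached -0.60 ± 0.30 with the CD8-depleted combination. In that fit the smallest unadjusted p by edgeR was 0.0685, with an adjusted p of 0.291. Without the library that stood apart, Snai1 was at -0.57 ± 0.21 (log2, SE) with anti-CTLA-4 and with the full combination. With it, both were at -0.57 ± 0.30. The CD8-depleted combination, then 1 library, was at -0.14. The 6 comparisons share the control libraries, which lay close together. Snai1 overlapped control with APG-157 (16.4 and 22.2 CPM), anti-PD-1 (15.6 and 22.0 CPM) and anti-CD8 (24.0 and 17.5 CPM).

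Snai2 was at 16.9 and 17.8 CPM in control, and its log2 values ran from -0.31 with APG-157 plus anti-CTLA-4 to 0.08 with APG-157 plus anti-PD-1. Zeb1 was at 141 and 113 CPM in control, and ran from -0.38 with the CD8-depleted combination to 0.10 with anti-CD8. Twist2, at 21.1 and 28.2 CPM in control, had its highest pair of libraries with anti-CTLA-4, at 29.4 and 29.3 CPM, a log2 value of 0.25 ± 0.21 (SE, edgeR adjusted p = 0.836). Vim was at 4026 and 5093 CPM in control, and outside the CD8-depleted combination its log2 values lay between -0.10 and 0.23.

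Zeb2 and Twist1 were also read where APG-157 was added to anti-CTLA-4. With APG-157 plus anti-CTLA-4, Zeb2 was at 178 and 185 CPM and Twist1 at 40.5 and 40.8 CPM. The interaction of APG-157 with anti-CTLA-4 in the 4 groups without anti-PD-1 or anti-CD8 was 0.80 ± 0.27 (log2, SE) for Zeb2 and -0.82 ± 0.31 for Twist1. The unadjusted p was 0.0112 and 0.0197, and edgeR's adjusted p was 0.462 for both. The edgeR call count was 0 of 10 members, against 0.00511% of all genes, and 2 of 10 members had an unadjusted p under 0.05, against 10.1%. DESeq2 called 0 members, against 0.511%. Averaged over anti-PD-1, the same interaction gave 0.38 for Zeb2 and -0.28 for Twist1.

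**Figure D3:**
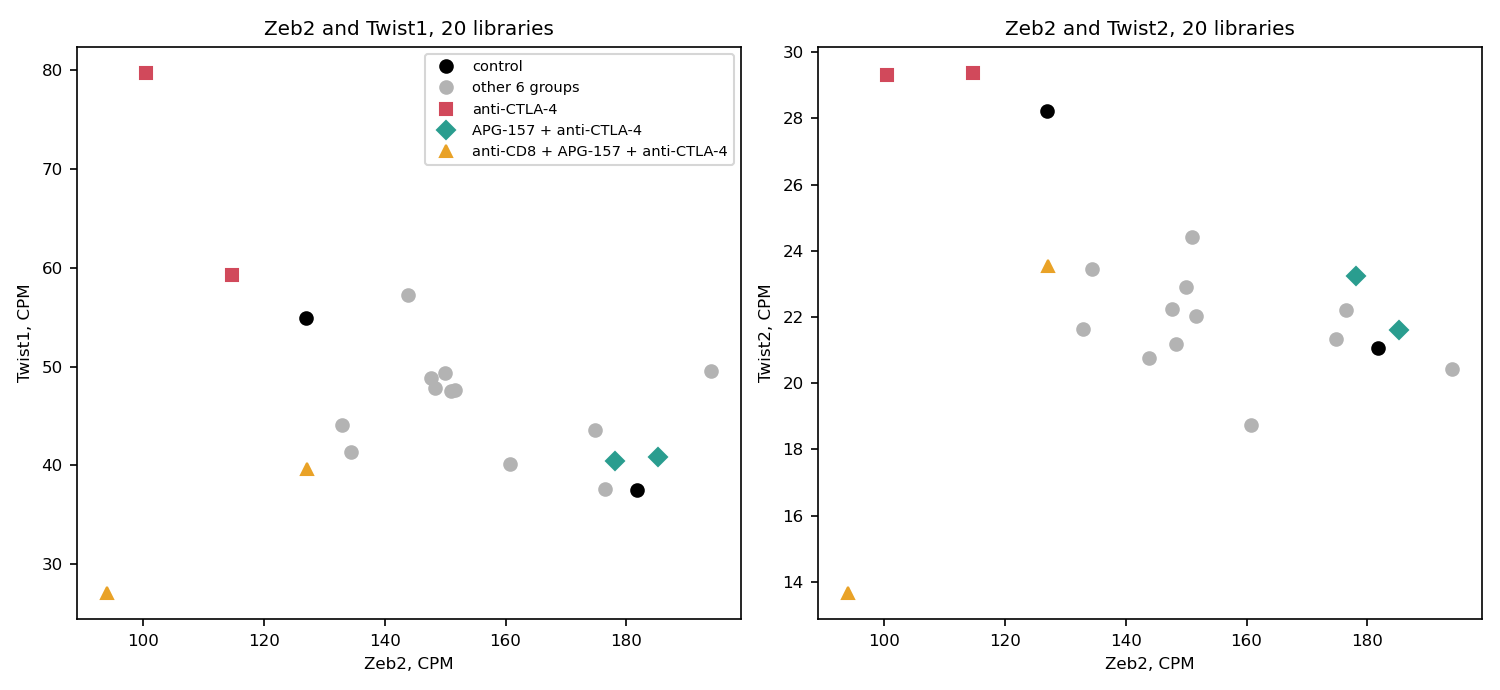
Zeb2 in CPM (horizontal axis) against Twist1 (left) and Twist2 (right) in CPM, 1 point per library, with 4 groups marked. The anti-CTLA-4 libraries lie at the upper left and APG-157 plus anti-CTLA-4 at the lower right. The lowest point in both panels is library B of the CD8-depleted combination.

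The other interactions also gave 0 of 10 members called by edgeR and by DESeq2, against an edgeR background of 0% in each of the 3. Averaged APG-157 by anti-PD-1 was the one with members to name. There Twist1 had a log2 value of 0.53 ± 0.22 (SE, edgeR unadjusted p = 0.0298, adjusted p = 0.649), which was 1 of 10 members at an unadjusted p under 0.05, against 7.61% of genes. Cdh2 had 1.16 ± 0.65 (SE, adjusted p = 0.664). The averaged APG-157 by anti-CTLA-4 and anti-CTLA-4 by anti-PD-1 interactions had 0 members at an unadjusted p under 0.05, against 2.94% and 2% of genes. The DESeq2 background was 0.0307% and 0.0358% for these interactions and 0.368% for APG-157 by anti-PD-1.

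Main effects of each agent were read from 8 libraries with it against 8 without, leaving out the anti-CD8 groups. EdgeR called 0 of 10 members in each, against a background of 0% (APG-157), 0% (anti-PD-1) and 0.25% (anti-CTLA-4). DESeq2 called 0 of 10 in each as well, against 0.0409%, 0.797% and 3%. At an unadjusted p under 0.05, edgeR had 1, 1 and 0 members in the same order, against 7.36%, 8.77% and 10.1% of genes.

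Cdh2, which encodes N-cadherin, was the member with the smallest p in these effects. It was at 0.448, 1.20 and 2.71 CPM (lowest, median, highest) in the 8 libraries with anti-PD-1 and at 0.388, 0.619 and 0.746 CPM in the 8 without. Of the libraries with anti-PD-1, 7 of 8 were above every library without. Library A of both antibodies, at 0.448 CPM, was the exception. The log2 main effect was 1.11 ± 0.33 (SE, edgeR unadjusted p = 0.00495, adjusted p = 0.561).

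In single groups, Cdh2 was at 2.71 and 0.884 CPM with APG-157 plus anti-PD-1 and at 2.49 and 1.22 CPM with the full combination, against 0.593 and 0.720 CPM in control. The log2 fold changes against control were 1.45 ± 0.66 (SE, edgeR unadjusted p = 0.0467, adjusted p = 1) and 1.5 ± 0.66 (SE, edgeR unadjusted p = 0.0412, adjusted p = 0.940). The counts of Cdh2 in the 19 libraries lay between 19 and 152, so that these are differences between low levels.

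Fibroblast markers moved with Cdh2. Their mean log2(CPM + 0.1) over 10 genes was 3.25, 3.91 and 6.17 (lowest, median, highest) with anti-PD-1 and 1.88, 3.24 and 4.36 without. Over the 19 libraries, Pearson's r between the fibroblast level and log2(CPM + 0.1) of Cdh2 was 0.72 (permutation p = 0.00045, adjusted p = 0.039 over 100 relations) and Spearman's rho was 0.73 (permutation p = 0.00057, adjusted p = 0.057). Without the 2 libraries farthest from the median on the marker axis r was 0.68, and it was 0.84 over the A libraries and 0.37 over the B libraries. The 2 highest Cdh2 libraries also had high skeletal muscle levels, 7.94 and 8.61. With the muscle level as a covariate, the main effect on Cdh2 was 0.88. The part of fibroblasts in the Cdh2 difference was not tested.

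**Figure D4:**
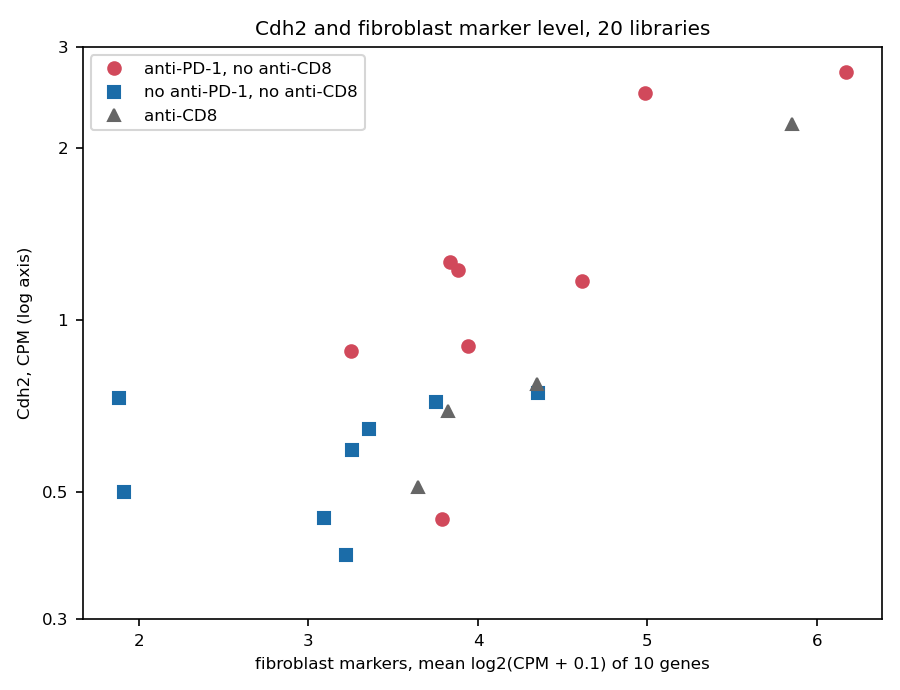
Cdh2 in CPM on a log axis against the mean fibroblast marker level, 1 point per library. Red circles are libraries with anti-PD-1 and no anti-CD8, blue squares libraries without either, and gray triangles libraries with anti-CD8. The highest Cdh2 points (2.71 and 2.49 CPM) lie at fibroblast levels of 6.17 and 4.98.

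Zeb2 was the member named for APG-157. It stood at 144, 163 and 194 CPM (lowest, median, highest) in the 8 libraries with the drug and at 100.5, 149 and 182 CPM in the 8 without, and the groups overlapped. The log2 main effect was 0.21 ± 0.10 (SE, edgeR unadjusted p = 0.0469, adjusted p = 0.657). The other 9 members lay between -0.49 and 0.43. For anti-CTLA-4 the 10 members lay between -0.30 and 0.19.

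CD8 depletion under the drug combination was the comparison in which members were called. It set the CD8-depleted combination against APG-157 plus anti-CTLA-4 and asks what the loss of cytotoxic T cells changes in tumors given both agents. EdgeR called 4 of 10 members, 2 higher and 2 lower, against 19% of all genes (10.8% higher and 8.18% lower). DESeq2 called 4 of 10, against 29.5%. With an unadjusted p under 0.05 there were 4 of 10, against 38.3% of genes. Without the library that stood apart, 1 library was left in the depleted group, and the fit assumes that it varies like the other groups. Calls over all genes then dropped to 0.0394%, so that 0 of 10 members called says little about the members, and 1 of 10 had an unadjusted p under 0.05, against 14.9% of genes. By the study's account, CD8 depletion was an experiment of its own, with its own control and combination mice, while the labels give a single group of each. Differences between experiments and the effect of anti-CD8 cannot be told apart here.

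Cdh1 was at 5.15 CPM in library A and 224 CPM in library B of the depleted group, against 6.87 and 7.18 CPM without depletion. Library A was below both undepleted libraries and library B above both. The log2 fold change was 4.02 ± 1.21 (SE, edgeR adjusted p = 0.0408), and without library B it was -0.45 ± 0.70 (SE, edgeR adjusted p = 0.776).

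Epcam was at 0.608 CPM in library A and 218 CPM in library B, against 0.280 and 0.0914 CPM. Library A was the highest of the 19 libraries, at 42 counts. It also had the highest Krt5 and Krt14 of the 19, at 6.97 and 6.50 CPM. Whether this bears on Epcam was not tested. The log2 fold change was 9.15 ± 1.99 (SE, edgeR adjusted p = 0.0254), and 1.68 ± 0.91 without library B (SE, edgeR adjusted p = 0.394).

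Vim was at 4070 and 2030 CPM, against 5365 and 5268 CPM, so that both depleted libraries were lower. Groups that did not overlap were seen for 6 of 10 members and for 63.8% of all genes. The log2 fold change was -0.80 ± 0.25 (SE, edgeR adjusted p = 0.0440) and -0.39 ± 0.19 without library B (SE, edgeR adjusted p = 0.367). Zeb2 was at 127 and 94.1 CPM, against 178 and 185 CPM, again lower in both. Its log2 fold change was -0.72 ± 0.19 (SE, edgeR adjusted p = 0.0310) and -0.52 ± 0.22 without library B (SE, edgeR adjusted p = 0.310). Cdh2 was not called, at 0.694 and 2.20 CPM against 0.50 and 0.731 CPM, with a log2 fold change of 1.23 ± 0.66 (SE, edgeR adjusted p = 0.184). The other 5 members lay between -0.46 and 0.39. Without either library of APG-157 plus anti-CTLA-4, the pair that differed least, edgeR called 0 of 10 members, against 0.00909% of all genes in both cases. The log2 values without library A or B of that pair were 3.95 and 4.02 for Cdh1, 10.15 and 8.56 for Epcam, -0.80 and -0.82 for Vim, and -0.76 and -0.70 for Zeb2.

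The same group against control gave a log2 fold change of 5.22 ± 1.28 (SE) for Cdh1 and 9.26 ± 2.01 for Epcam, with an edgeR adjusted p of 0.145 for both. DESeq2's adjusted p was 0.000226 and 5.23e-07. Vim was at -0.58 ± 0.25 and Zeb2 at -0.48 ± 0.19 (log2, SE), with edgeR adjusted p of 0.238 and 0.213, and Cdh2 at 1.13 ± 0.66 with 0.348. Without library B, Cdh1 was at 0.75 ± 0.68 and Epcam at 1.77 ± 0.92 (log2, SE), with an edgeR adjusted p of 1 for both. Anti-CD8 alone, at 0.108 and 0.363 CPM of Epcam, stayed within the range of the other libraries.

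**Figure D5:**
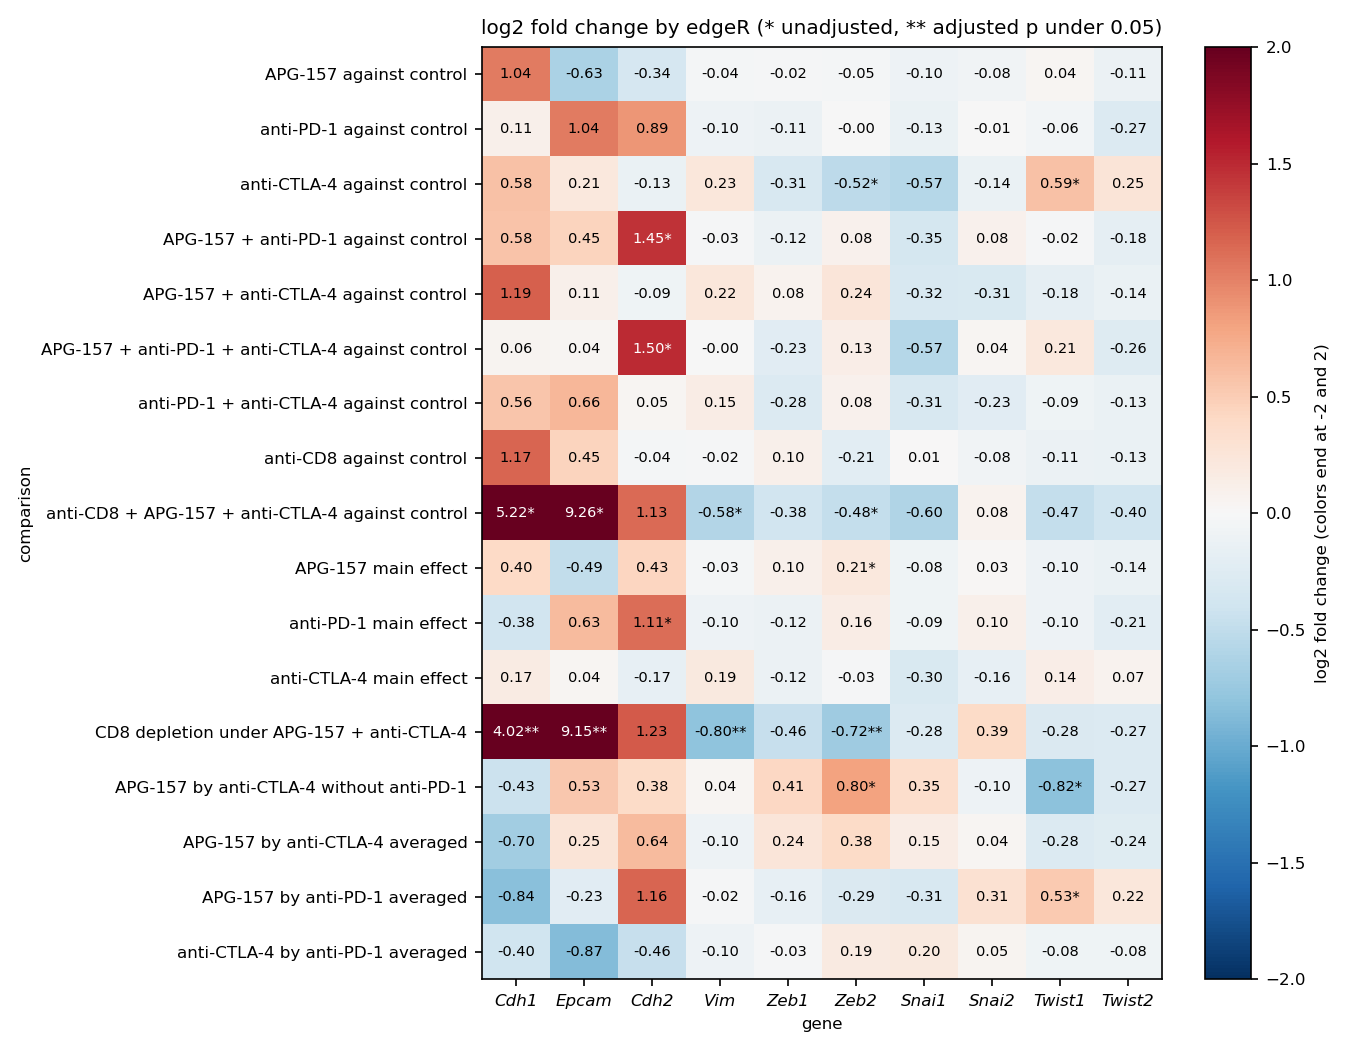
Log2 fold change of each member (columns) in each of 17 comparisons (rows), by edgeR over all 20 libraries. Asterisks mark an unadjusted p under 0.05 and double asterisks an adjusted p under 0.05, which occurs in the row of CD8 depletion for Cdh1 (4.02), Epcam (9.15), Vim (-0.80) and Zeb2 (-0.72).

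In the library that stood apart, 9 of 10 members lay outside the range of the other 19 libraries, as did 52.4% of all tested genes (27.9% above and 24.5% below). Cdh1 was 54.4 times and Epcam 1050 times the median of the other 19 libraries. Vim was at 0.444, Snai1 at 0.497, Twist1 at 0.570, Zeb1 at 0.610, Twist2 at 0.615 and Zeb2 at 0.628 of that median, each below every other library. Snai2 was at 20.6 CPM, above every other library, and Cdh2 at 2.20 CPM was above 17 of 19. Vim remained the most abundant member, at 18.3 times Cdh1 per kilobase.

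Other epithelial genes were high in the same library. Of 18 tested epithelial junction and identity genes, 12 were above all other libraries, against 27.9% of all tested genes. They included Elf3, an epithelial transcription factor, at 282 CPM against at most 0.186 CPM, and Dsp (desmoplakin) at 133 CPM against at most 0.883 CPM. Krt19, which did not pass the filter, was at 221 CPM against at most 0.116 CPM. Krt8 and Krt18, at 508 and 468 CPM, were below all other libraries. The squamous keratins Krt5 and Krt14 were low, at 0.740 and 0.275 CPM.

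Named after their values were seen, Ovgp1 (oviductal glycoprotein) was at 1255 CPM against at most 1.37 CPM, the mesothelial and gonadal factor Wt1 at 87.0 CPM against at most 0.606 CPM, and the cilia gene Cfap65 at 79.3 CPM against at most 0.336 CPM. Adipoq (adiponectin) was at 355 CPM against at most 3.03 CPM. Among the 19567 tested genes, 583 (2.98%) were at least 8 times the highest other library, with 0.1 CPM added to both. The source of these transcripts, and their part in the values of the members, was not tested.

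Gene lists around the members were read in the same fits. They held 98 tested genes in 6 lists: other cadherins, catenins and cadherin partners, epithelial junction and identity genes, squamous keratinocyte genes, mesenchymal genes, and upstream signals and cofactors. EdgeR called 0 of 98 in each of the 9 comparisons with control, with 22 at an unadjusted p under 0.05 for APG-157 plus anti-CTLA-4, 33 for the CD8-depleted combination and 1 to 9 in the other 7. Over all genes the shares at that level were 11.1% for APG-157 plus anti-CTLA-4 and 19.1% for the CD8-depleted combination. DESeq2 called 11 and 17 of the 98 in these 2 comparisons, against 1.91% and 6.85% of all genes, and 0 to 1 in the other 7. Without the library that stood apart, edgeR called 2 of 101, Tgfb3 and Mmp2, for APG-157 plus anti-CTLA-4, against 0.143% of all genes.

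The mesenchymal list lay low with APG-157 plus anti-CTLA-4, the pair of libraries that differed least from each other. Of its 20 genes, 8 had an unadjusted p under 0.05 by edgeR, 0 of them higher, against 11.1% of all genes. DESeq2 called 7 of the 20, against 1.91%. The list's median was -0.61 on the log2 scale, against -0.03 over all genes. Named after their values were seen, the matrix gene Postn (periostin) was at -2.95 ± 0.51 (SE, edgeR adjusted p = 0.0851), the pericyte receptor gene Pdgfrb at -1.92 ± 0.45 (SE, edgeR adjusted p = 0.172), and the matrix genes Sparc at -1.06 ± 0.20 (SE, edgeR adjusted p = 0.112) and Col3a1 at -0.98 ± 0.22 (SE, edgeR adjusted p = 0.170). Markers of other cells moved with them. The 10 fibroblast markers had a median of -1.92 with 2 at an unadjusted p under 0.05, and the 10 endothelial markers a median of -1.17 with 7, beside the same 11.1% of all genes. EdgeR called 0 and DESeq2 2 and 1 of these. Their part in the mesenchymal list was not tested. The members Vim, Zeb1, Zeb2, Twist1 and Twist2 lay between -0.19 and 0.24 in this comparison. Snai1 was at -0.32 ± 0.30 (log2, SE), Snai2 at -0.31 ± 0.19 and Cdh2 at -0.09 ± 0.66.

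In CD8 depletion, edgeR called 37 of 98, against 19% of all genes, and the median of all genes was 0.09 on the log2 scale. Epithelial junction and identity genes had 7 of 18 called higher and 0 lower, with a median of 3.07, among them Grhl2 at 4.06 and St14 at 4.85. Mesenchymal genes had 7 of 20 higher and 2 lower, with a median of 0.57. Matrix and contractile genes were the ones that rose, such as Postn at 2.76 and Sparc at 1.04, against a group in which they lay low beside control (-2.95 and -1.06). Of 10 fibroblast markers 5 were called higher (median 3.12), of 10 endothelial markers 8 (median 1.53) and of 10 adipocyte markers 9 (median 12.97), and their part in the list was not tested. In the same list, the receptor Axl fell by 1.00 and the integrin Itga5 by 0.90. Squamous keratinocyte genes had 5 of 14 higher and 2 lower (median 3.00), other cadherins 3 of 10 higher and 1 lower (median 1.88), and cadherin partners 1 of 7 higher, Jup (plakoglobin) at 2.14. Without the library that stood apart, 1 library was left in the depleted group. The list medians were then -0.18 for epithelial and 0.65 for mesenchymal genes. They were 0.37 for squamous keratinocyte genes, 0.62 for other cadherins and -0.24 for cadherin partners.

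Of the 29 upstream signals and cofactors, edgeR called 2 higher and 7 lower in CD8 depletion, against 10.8% and 8.18% of all genes. The median of the list was -0.24. Gata6 at 2.27 and Tgfb2 at 1.80 rose. The TGF-β receptor gene Tgfbr2 fell by 0.80, Smad3 by 0.73, Smad4 by 0.50 and Hgf by 2.12 on the log2 scale. Without the library that stood apart, which left 1 library in the depleted group, the median of the 29 was -0.13. Tgfb2, a TGF-β ligand that can start epithelial-mesenchymal transition, was also the 1 gene of the 98 called in the anti-CTLA-4 main effect with all libraries in the fit. It was at 5.61, 9.27 and 14.7 CPM (lowest, median, highest) in the 8 libraries with anti-CTLA-4 and at 11.6, 18.7 and 29.0 CPM in the 8 without. The counts of the 98 genes in that effect were 1 by edgeR, 27 at an unadjusted p under 0.05, against 10.1% of all genes, and 15 by DESeq2, against 3%. Without the library that stood apart, edgeR called 8 of 101, against 0.891% of all genes. These were Tgfb2, Tgfb3, Sparc, Col3a1, Pdgfrb and Mmp2, lower with anti-CTLA-4, and Pkp3 and Sox2, higher. With all libraries in the fit, the log2 main effect on Tgfb2 was -0.95 ± 0.17 (SE, edgeR adjusted p = 0.0429). In 24 alternative fits the value stayed between -1.08 and -0.74, and 8 of 24 had an adjusted p under 0.05. When 1 of 16 libraries was left out, 3 of 16 did.

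Pairs of members were compared across libraries. Over the 19 libraries, 5 of 45 pairs had an adjusted permutation p under 0.05 by Pearson's r. Zeb2 ran opposite to Twist2 (r = -0.74, permutation p = 0.00041, adjusted p = 0.0184, and rho = -0.64, permutation p = 0.00386, adjusted p = 0.0579) and to Twist1 (r = -0.69, permutation p = 0.00102, adjusted p = 0.0230, and rho = -0.53, permutation p = 0.0221, adjusted p = 0.199). Without the 2 libraries farthest from the median of Zeb2, r was -0.50 and -0.37, so that the relation with Twist1 rested largely on those libraries.

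Cdh1 and its repressor Zeb1 were higher in the same libraries (r = 0.63, permutation p = 0.00394, adjusted p = 0.0454, and rho = 0.72, permutation p = 0.00089, adjusted p = 0.0355). Without the 2 libraries farthest from the median of Cdh1, r was 0.62. Zeb1 and Twist1 were opposed by rank (rho = -0.69, permutation p = 0.00158, adjusted p = 0.0355). Pearson's r of that pair was -0.53 (permutation p = 0.0210, adjusted p = 0.133). Twist1 and Twist2 went together (r = 0.63, permutation p = 0.00436, adjusted p = 0.0454), but by rank rho was 0.29 (permutation p = 0.229, adjusted p = 0.535). Vim and Snai2 were opposed (r = -0.62, permutation p = 0.00504, adjusted p = 0.0454, and rho = -0.46, permutation p = 0.0496, adjusted p = 0.248). Without the 2 farthest libraries, r was 0.44 for the Twist pair and -0.45 for Vim and Snai2. Cdh1 and Epcam were not related over the 19 libraries (r = -0.19, permutation p = 0.441, adjusted p = 0.709, and rho = -0.21, permutation p = 0.381, adjusted p = 0.643). Epcam followed the mean level of the epithelial junction and identity genes over the 19 libraries (r = 0.71, permutation p = 0.00078, adjusted p = 0.039 over 100 relations), with rho = 0.63 (permutation p = 0.00532, adjusted p = 0.190). Without the 2 libraries farthest from the median of the list r was 0.61, and it was 0.73 over the A and 0.68 over the B libraries. This and the relation of Cdh2 with fibroblast markers were the 2 of 100 marker relations past the adjusted threshold.

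The genes most like a member were taken from the 3 with the highest Pearson's r of log2(CPM + 0.1) over the 20 libraries, as a description. For Epcam they included Esrp1 (0.98) and Cldn3 (0.97), and for Cdh1 Ephx4 (0.95) and Gcnt2 (0.94). For Vim they included Hmga1b (0.96) and Lmna (0.94), and for Zeb1 Tbc1d15 (0.95), Arhgap24 (0.95) and Frmd6 (0.95). For Cdh2 they were Angptl1 (0.89), Sulf1 (0.89) and Zfhx4 (0.88), for Snai1 Map3k14 (0.91), P2ry12 (0.90) and Stab1 (0.89), and for Twist1 Polb (0.93), Slc39a13 (0.92) and Gemin6 (0.92). The lists depended on the library that stood apart. Over 19 libraries the gene most like Epcam was Perp (0.82), and the others led with Rufy1 (0.83) for Cdh1, Gas2l1 (0.90) for Vim, Atrnl1 (0.97) for Zeb1, Armcx2 (0.92) for Cdh2, Pcdhb7 (0.87) for Snai1 and Entr1 (0.93) for Twist1.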

How the data were processed

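RNA was isolated from SCCVII tumors and sequenced from libraries of a KAPA mRNA kit, per the labels. The authors trimmed reads with Trimmomatic 0.39 and estimated transcript abundance with Salmon (1.5.0 in the submitters' processing notes) against GENCODE mouse transcripts (GRCm39), summed to genes. The values deposited by the authors and used here are expected counts, which were rounded to whole numbers. A table of normalized values was not used here.

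Counts of all 20 libraries in 10 groups were fitted in edgeR 4.0.16 (TMM, filterByExpr with a minimum count of 10, robust quasi-likelihood, 10 residual degrees of freedom), with Benjamini-Hochberg adjustment over the 19567 genes tested. DESeq2 1.42.0 was an alternative. CPM use TMM-scaled library sizes, and log2 values add 0.1 CPM. Correlations used 100000 permutations, two-sided. The fit was tested on simulated data. Exon lengths, antisense overlaps and promoters came from GRCm38 annotations, another build than the files', and were used for lengths, names and sequence alone. Libraries were grouped by their titles. Libraries held 43920525 to 72081922 counts, and low members such as Epcam, at 5 to 42 counts, carry counting error on that scale.

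Members were named with their fold change where the unadjusted p was under 0.05 or the log2 change was at least 1 in size, and of each list up to 4 genes, called first. The values of Snai1 and of the remaining members against control were added after they were seen. Members and lists were chosen with earlier results of these data known. Some genes among those most like a member are not reported here.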

Additional observations from a re-analysis of the deposited data

How the results depend on the processing

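With 2 libraries per group, 0 calls do not show that members were stable. Members called against control numbered 0, against 2 by DESeq2, 1 with the 2 compared groups alone (Cdh1 with APG-157 plus anti-CTLA-4, where 4.21% of all genes were called) and 0 to 8 when 1 library was left out. The 8 arose without library A of the CD8-depleted combination, which leaves the library that stood apart alone in its group and assumes that it varies like the other groups. It called 30.2% of all genes against control and 40.7% for CD8 depletion. For CD8 depletion, the 4 calls became 2 with no low-count filter (5.92% of all genes called), 2 with the letter as a replicate block (18.8%), 2 with a log2 fold change over 1 (10.4%) and 2 over 2 (6.89%), 0 without the library that stood apart (0.0394%), 0 with both libraries of APG-157 plus anti-CTLA-4 summed into 1 (0.0091%), and 0 to 8 when 1 library was left out. The replicate block changed no other count of calls (0 in the comparisons with control, main effects and interactions). Deviations of the A libraries from their group means had a median correlation between groups of 0.0164 (lowest -0.381, highest 0.705). Of 45 pairs of groups, 13 had correlations over 0.1. Whether the letters mark shared batches cannot be told from these values. Main effects and interactions gave 0 calls under every alternative run. The Cdh1 change in CD8 depletion was -0.45 without the library that stood apart and -0.45 to 4.96 when 1 library was left out, and that of Epcam with anti-PD-1 was -0.16 (without library B of anti-PD-1) to 1.67. Pairs of members past the adjusted threshold numbered 6 over all 20 libraries, 0 without the 2 farthest libraries, 2 over the A and 1 over the B libraries, 22 as deviations from group means and 0 by Spearman. The 2 deviations of a group are equal and opposite, which the permutations ignored. The count of 22 therefore cannot be compared with the others. Chosen after seeing the data, 19 libraries gave 5 by Pearson and 2 by Spearman, and 1 with the closest pair counted once. The cause of these differences was not tested.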

Other observations

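Cell type markers varied among libraries in ways the labels do not give. Skeletal muscle markers ranged from -1.41 to 8.61 (mean log2(CPM + 0.1) of 10 genes) over 19 libraries, T cell markers from -0.05 to 4.34 and fibroblast markers from 1.88 to 6.17, while macrophage markers stayed between 7.96 and 8.68. The 2 libraries of APG-157 plus anti-CTLA-4 had the lowest fibroblast levels, 1.91 and 1.88. In the library that stood apart the macrophage level was 7.25 and the endothelial level 4.41, against at most 3.97 elsewhere. A gene without a symbol took 11.5% of its counts, against 0.738% to 2.58% in the others, and mitochondrial genes took 6.93%, against 2.61% to 4.59%.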
